A study of Mus musculus with 8 samples.

Results

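The myelin and oligodendrocyte lineage genes described here are Mbp, Mog, Mag, Cnp, Mobp, Olig1, Olig2, Sox10 and Cspg4. They were chosen by name, though with earlier results of these data known. All 9 were found by symbol and identifier among the 31406 genes of the table that holds both groups, and all 9 passed the filter on low counts, as did 18756 genes in all. RNA was sequenced from 8 wild-type mouse primary cultures labelled microglia, the immune cells that reside in the brain. All 8 were kept for 15 days and then exposed to LPS, a bacterial lipopolysaccharide, and interferon-γ over 48 h. The A2A antagonist group holds 4 cultures that also received SCH 58261, which blocks the A2A receptor for adenosine. The dual group holds 4 that received SCH 58261 together with 2-Cl-IB-MECA at 200 nM, which activates the A3 receptor for adenosine. Per the methods of the study, the cells came from the striatum of newborn C57/BL6 pups, the meninges were removed, the interferon-γ was the human protein, and the ligands were given 3 times, 24, 32 and 40 h into the activation. The groups follow the titles of the samples, whereas in the treatment field of the labels 2-Cl-IB-MECA appears for the A2A antagonist group and is missing for the dual group. The direction of every difference therefore rests on the titles. Nothing in the labels ties a library to an animal, so p-values measure the spread between these libraries, which may be technical.

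Oligodendrocytes wrap axons of the central nervous system in myelin, a stack of membrane sheets held together by a small set of proteins. They arise from dividing precursor cells that carry the proteoglycan NG2 and the platelet-derived growth factor receptor α. The transcription factors Olig1, Olig2 and Sox10 set up the lineage, and the myelin proteins are made late, once a precursor has left the cell cycle and matured. Mouse glial cultures from newborn brain commonly hold such precursors beside astrocytes and microglia.

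The cultures were labelled microglia, and all 12 microglia markers were detected, among them C1qa with 476 ± 29.6 CPM, counts per 1e6 counts of a library (SD, n = 4), and Csf1r with 218 ± 5.47 CPM (SD, n = 4) in the A2A antagonist group. P2ry12 and Tmem119, markers of resting microglia, had 1.66 ± 0.216 and 7.41 ± 0.581 CPM (SD, n = 4). Markers of other cells were abundant as well. The summed level of 12 microglia markers lay between 1546 and 1767 CPM per library, that of 12 astrocyte markers between 6500 and 7046 CPM, and that of 9 fibroblast markers between 3249 and 4148 CPM. Neuron markers summed to between 69.1 and 74.6 CPM over 10 genes. These sums are not corrected for gene length and so do not rank the cell types. Libraries held between 32630602 and 45878639 counts. In bulk RNA, fewer cells of a type and less RNA per cell cannot be told apart.

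The positions of all 9 genes are the same in the deposited tables and in GENCODE (GRCm38). Olig2 (ENSMUSG00000039830, chromosome 16, 91225457 to 91228677) and Olig1 (ENSMUSG00000046160, chromosome 16, 91269772 to 91271933) are neighbours, 41094 bases apart. Sox10 (ENSMUSG00000033006) lies on chromosome 15 from 79154908 to 79165240, Cspg4 (ENSMUSG00000032911) on chromosome 9 from 56865033 to 56899870, and Mobp (ENSMUSG00000032517) on chromosome 9 from 120149707 to 120181484. Cnp (ENSMUSG00000006782) lies on chromosome 11 from 100574904 to 100591729, Mag (ENSMUSG00000036634) on chromosome 7 from 30899176 to 30914873, and Mog (ENSMUSG00000076439) on chromosome 17 from 37010743 to 37023398. The counting settings for strand and for reads that fall in several genes were not stated. Overlapping genes may therefore have altered the counts of 3 of the 9. Cnp shares 154 of 3639 exon bases with Dnajc7 and Olig1 157 of 2162 with Gm15966, both on the opposite strand. Mobp shares 79 of 6849 with Gm38642 on the same strand, where strand use makes no difference. No exon overlap was found for Mbp, Mog, Mag, Olig2, Sox10 and Cspg4.

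Start-site sequences from RefSeq (GRCm38.p6), each from 250 bases before to 50 bases after a start site, were held for 6 of the 9 genes in 8 windows. They are shown because Sox10, one of the 9 genes, encodes a factor of the SOX family, whose members bind short motifs with a CAA core. The letters ACAAAG and ACAATG were searched on both strands; these letters cannot overlap each other. The letters were settled on after a first search that also held ACAATA and, apart from these, CAGCTG and TATAAA, so they were chosen with matches in view. Matches were found in 5 of the 8 windows, for Cnp, Mag, Mobp and Olig2, and in 28.6% of all 32851 windows. Both windows of Mag with a match overlap and share the same site. The window of Mobp, the gene of a small basic myelin protein, held 6 matches, a number that no other of the 32851 windows reached. In the first search, with ACAATA included, 34.1% of all windows held a match, Mobp again held 6, and 3 of the 32851 windows held as many. CAGCTG was in 0 of the 8 windows and in 16.3% of all, and TATAAA was in 1 of the 8, that of Olig2, and in 13.6% of all. CANNTG, the E-box that basic helix-loop-helix factors such as Olig1 and Olig2 can bind, was also searched and was in 4 of the 8 windows, of Cnp and Mag, and in 72.3% of all. Capitals mark the matches, and a match is a description of the letters only.
Mobp, chr9:120149492-120149791, plus strand: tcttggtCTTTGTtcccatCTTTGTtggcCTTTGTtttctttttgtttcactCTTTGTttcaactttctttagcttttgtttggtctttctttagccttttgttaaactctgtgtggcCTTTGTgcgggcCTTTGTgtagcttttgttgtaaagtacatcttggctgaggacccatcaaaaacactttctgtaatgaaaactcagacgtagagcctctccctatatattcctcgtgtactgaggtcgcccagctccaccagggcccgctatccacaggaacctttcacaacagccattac
Cnp, chr11:100574689-100574988, plus strand: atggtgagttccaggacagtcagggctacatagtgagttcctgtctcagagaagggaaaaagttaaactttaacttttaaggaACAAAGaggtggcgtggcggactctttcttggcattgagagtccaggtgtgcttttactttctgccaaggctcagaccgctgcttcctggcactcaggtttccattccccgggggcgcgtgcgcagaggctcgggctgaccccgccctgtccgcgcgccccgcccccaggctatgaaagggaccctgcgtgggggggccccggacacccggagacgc
Mag, chr7:30914814-30915113, minus strand: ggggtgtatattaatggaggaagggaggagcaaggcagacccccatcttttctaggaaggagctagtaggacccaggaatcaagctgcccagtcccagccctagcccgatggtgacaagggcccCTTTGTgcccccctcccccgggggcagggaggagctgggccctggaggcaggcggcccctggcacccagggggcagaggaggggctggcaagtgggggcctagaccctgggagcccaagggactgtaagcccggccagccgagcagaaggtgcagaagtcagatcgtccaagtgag
Olig2, chr16:91225300-91225599, plus strand: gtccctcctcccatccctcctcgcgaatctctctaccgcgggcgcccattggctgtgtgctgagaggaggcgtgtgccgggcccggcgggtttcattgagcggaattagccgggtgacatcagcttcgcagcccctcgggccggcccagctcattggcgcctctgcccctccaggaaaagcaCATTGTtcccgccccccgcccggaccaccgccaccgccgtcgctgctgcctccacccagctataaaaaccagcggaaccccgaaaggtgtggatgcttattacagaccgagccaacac
The windows of Mog and Cspg4 and 1 of the 3 windows of Mag held neither ACAAAG nor ACAATG.

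To compare genes with one another, levels were divided by gene length and given as CPM per kilobase. Olig1 and Olig2 stood highest, and Mag, Mog and Mobp lowest. The mean level over 8 libraries was 120.2 CPM per kilobase for Olig1, 44.8 for Olig2, 33.2 for Cnp, 12.7 for Sox10, 4.59 for Mbp, 3.87 for Cspg4, 1.73 for Mag, 0.759 for Mog and 0.307 for Mobp. Olig1 was above 98.3% of all genes tested on this scale, Olig2 above 94.2% and Cnp above 91.7%, whereas Mog was above 24.7% and Mobp above 13.1%. Every neighbouring pair in this order had libraries whose ranges lay apart, except Mbp and Cspg4. The lowest library of Mbp had 3.18 CPM per kilobase and the highest of Cspg4 had 4.28, so their order is not set beyond the spread. Together the 9 genes took between 630 and 666 CPM in the A2A antagonist libraries and between 580 and 626 CPM in the dual libraries. Olig1 made up the largest part, with group means of 272 and 247 CPM, and the difference of the sums was not tested.

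**Figure D1:**
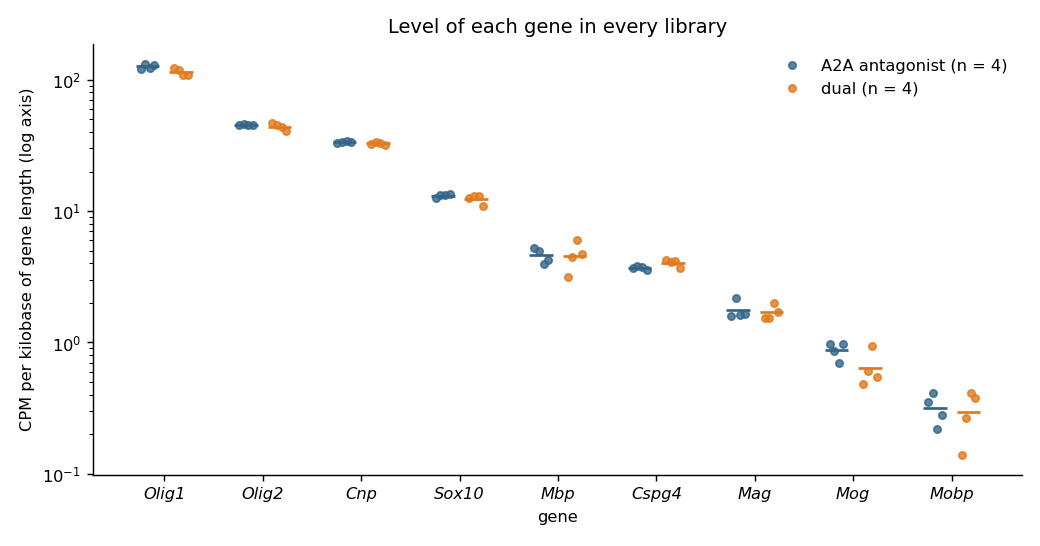
Level of each gene in CPM per kilobase of gene length (log axis) in the 4 libraries of the A2A antagonist group and the 4 of the dual group. Points are libraries and lines are group means. Olig1 stands highest at 120.2 and Mobp lowest at 0.307 CPM per kilobase, and the groups overlap for all 9 genes.

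The comparison of the groups asks whether the A3 receptor agonist, added to the A2A receptor antagonist, changed these genes. In the edgeR quasi-likelihood test over all 18756 genes, 0 of the 9 were called at an adjusted p-value under 0.05, where 0.208% of all genes were (0.0480% higher and 0.160% lower in the dual group). Without adjustment, 2 of the 9 had a p-value under 0.05, Olig1 lower and Cspg4 higher in the dual group, where 12.8% of all genes did (5.98% higher and 6.81% lower). In the DESeq2 Wald test 0 of the 6 genes given an adjusted p-value were called, where 3.87% of the 9665 genes with one were, and Mog, Mag and Mobp were given none. Without adjustment DESeq2 also had 2 of the 9 with a p-value under 0.05, where 11.7% of all genes did. The libraries of the groups overlapped for all 9, while 7.42% of all genes did not overlap (3.36% with all dual libraries higher and 4.06% with all lower). The median log2 fold change (dual against A2A antagonist) was -0.05, beside 0.0038 over all genes tested, and 7 of the 9 lay below 0, as did 48.5% of all genes.

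Olig1, a basic helix-loop-helix factor of the lineage, had the smallest p-value of the 9. Its level was 259, 287, 265 and 279 CPM in A2A antagonist replicates 1 to 4 and 264, 255, 237 and 234 CPM in dual replicates 1 to 4. The groups overlapped through dual replicate 1, which stood above A2A antagonist replicate 1, and the other 3 dual libraries were lower than all 4 of the A2A antagonist group. The group means were 272 ± 12.7 and 247 ± 14.7 CPM (SD, n = 4). This is a log2 fold change of -0.14 (SE 0.04, approximate 95% interval -0.22 to -0.06). In edgeR the p-value was 0.00408, or 0.157 after adjustment. After adjustment it ranged from 0.0293 to 0.388 over 13 other settings and was under 0.05 in 1 of them, without the filter on low counts, and 0.0518 with DESeq2. By exact permutation (two-sided) p was 0.0571, where 0.0286 is the smallest value that 4 libraries against 4 allow. The summed level of 12 microglia markers was 1640 to 1767 CPM in the A2A antagonist libraries and 1546 to 1649 CPM in the dual libraries, with none at 0 in all libraries. The lower sum came from the genes of complement C1q, with 476 and 403 CPM for C1qa, which was called, 234 and 207 CPM for C1qb and 313 and 281 CPM for C1qc. Of the 12, 4 were lower at an unadjusted p-value under 0.05 and 1, Csf1r, was higher (218 and 235 CPM), and 5 had a log2 fold change above 0. The part of these cells in the difference of Olig1 was not tested.

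Olig2, the neighbouring gene, encodes the factor that first commits cells to the lineage. It had 114, 117, 115 and 115 CPM in the A2A antagonist libraries and 118, 114, 110 and 103 CPM in the dual libraries. The 4 values with the antagonist lay close together, and those of the dual group spread to either side of them. The log2 difference of -0.05 (SE 0.04) had an edgeR adjusted p-value of 0.645. Sox10, which switches on myelin genes and is also made by Schwann cells, had 38.2, 40.1, 40.1 and 41.4 CPM in the A2A antagonist group and 38.5, 39.5, 39.8 and 33.2 CPM in the dual group. Dual replicate 4 was low and the other libraries lay between 38.2 and 41.4 CPM. The log2 fold change of Sox10 was -0.08 (SE 0.05, adjusted p-value 0.543 in edgeR), and -0.03 without that library. The summed level of 8 Schwann cell markers was 16.8 to 24.1 CPM in the A2A antagonist libraries and 23.2 to 25.9 CPM in the dual libraries, with none at 0 in all libraries. In edgeR 0 of the 8 were called, and 5 had a log2 fold change above 0 and 3 below 0. At an unadjusted p-value under 0.05, 2 were higher, where 5.98% of all genes were. The groups did not overlap for 2 of the 8, where 7.42% of all genes did not overlap. Egr2, with 7.03 and 10.3 CPM, had a log2 fold change of 0.56 (adjusted p-value 0.192 in edgeR), and Ncmap, with 0.214 and 0.428 CPM, had 0.98 (adjusted p-value 0.197 in edgeR). Prx had 5.05 and 5.74 CPM, and Pou3f1, 1 of the 3 genes below 0, had 2.25 and 1.93 CPM. The part of such cells in the values of Sox10 was not tested.

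Cspg4 encodes NG2, the proteoglycan on the surface of oligodendrocyte precursors and of pericytes. It had 43.8, 45.2, 45.0 and 42.2 CPM in A2A antagonist replicates 1 to 4 and 51.0, 48.8, 49.7 and 44.0 CPM in dual replicates 1 to 4. Dual replicate 4 fell inside the range of the antagonist libraries and the other 3 lay above it. The means were 44.1 ± 1.41 and 48.4 ± 3.03 CPM (SD, n = 4), a log2 fold change of 0.13 (SE 0.05, approximate 95% interval 0.04 to 0.23). In edgeR p was 0.0113, or 0.222 after adjustment, and by exact permutation (two-sided) it was 0.0857. Among genes of mural cells, to which pericytes belong, Abcc9, Kcnj8, Higd1b and Des did not pass the filter on low counts, with mean levels of 0.161 CPM or less in either group, and Rgs5 had 0.713 and 0.728 CPM. Over all 11 mural cell genes the sum was 157 to 174 CPM in the A2A antagonist libraries and 161 to 190.1 CPM in the dual libraries, carried mainly by Acta2 (87.4 and 91.2 CPM) and Notch3 (64.7 and 70.9 CPM). Of the 7 tested genes 0 were called, 6 had a log2 fold change above 0, as Cspg4 did, and 1 of these, Tagln (0.34), had an unadjusted p-value under 0.05. The summed level of 9 fibroblast markers was 3249 to 3664 and 3333 to 4148 CPM per library, with 0 called, 4 higher at an unadjusted p-value under 0.05 and none at 0 in all libraries. The part of these cells in the difference of Cspg4 was not tested.

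Cnp encodes an enzyme of the inner and outer rims of myelin that is made earlier in the lineage than the other myelin proteins. Its level was 121, 123, 123 and 123 CPM in the A2A antagonist libraries and 119, 122, 120.3 and 115 CPM in the dual libraries. These values were the tightest of the 9 genes, with a highest library 1.07 times the lowest. Between the groups the log2 fold change of Cnp was -0.04 (SE 0.03, approximate 95% interval -0.11 to 0.02), with an edgeR adjusted p-value of 0.645 and p = 0.0571 by exact permutation (two-sided).

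Mbp encodes myelin basic protein, which binds the inner faces of the membrane sheets. The gene (ENSMUSG00000041607) covers chromosome 18 from 82475146 to 82585637 and has 16 annotated transcripts with 12 start sites spread over 88116 bases. The transcripts that start far upstream encode the golli proteins, which immune cells can also make, and a count per gene does not separate them from the classic myelin basic protein. It had 44.0, 41.5, 33.2 and 35.9 CPM in the A2A antagonist libraries and 26.7, 37.4, 50.3 and 39.8 CPM in the dual libraries. Dual replicate 1 was the lowest and dual replicate 3 the highest of all 8, so the dual group enclosed the other. Its log2 fold change was 0.0067 (SE 0.12, approximate 95% interval -0.24 to 0.25), and it turned to -0.0029 in DESeq2 and to -0.15 without dual replicate 3. Mobp had 2.41, 2.81, 1.51 and 1.94 CPM with the antagonist and 0.950, 1.81, 2.81 and 2.57 CPM with both ligands, on 31 to 129 counts each. The same dual libraries stood at the ends as for Mbp, with replicate 1 lowest, while A2A antagonist replicate 2 and dual replicate 3 shared the top. The log2 fold change of Mobp was -0.06 (SE 0.25, approximate 95% interval -0.55 to 0.42), and 0.15 without dual replicate 1 and 0.09 without A2A antagonist replicate 2.

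Mag and Mog encode membrane proteins of the immunoglobulin superfamily, one facing the axon and the other on the outermost myelin sheet. Mag had 6.45, 8.82, 6.60 and 6.71 CPM in the A2A antagonist libraries and 6.28, 6.23, 8.19 and 6.90 CPM in the dual libraries. One library in each group stood above the rest, and the log2 fold change was -0.05 (SE 0.11, adjusted p-value 0.910 in edgeR), or 0.07 without A2A antagonist replicate 2. Mog had 1.66, 1.47, 1.196 and 1.65 CPM with the antagonist and 0.828, 1.03, 1.59 and 0.925 CPM with both ligands, on 27 to 75 counts each. For Mog 3 dual libraries lay below all 4 of the other group and dual replicate 3 lay inside its range. This was the largest fitted difference of the 9, a log2 fold change of -0.43 (SE 0.21, approximate 95% interval -0.86 to -0.01), with p = 0.0582 in edgeR, 0.410 after adjustment, and 0.0857 by exact permutation (two-sided). The intervals use the normal distribution and are narrower than the edgeR test implies, so that of Mog leaves out 0 although its unadjusted p-value is above 0.05. The log2 fold change of Mog was -0.69 without dual replicate 3.

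**Figure D2:**
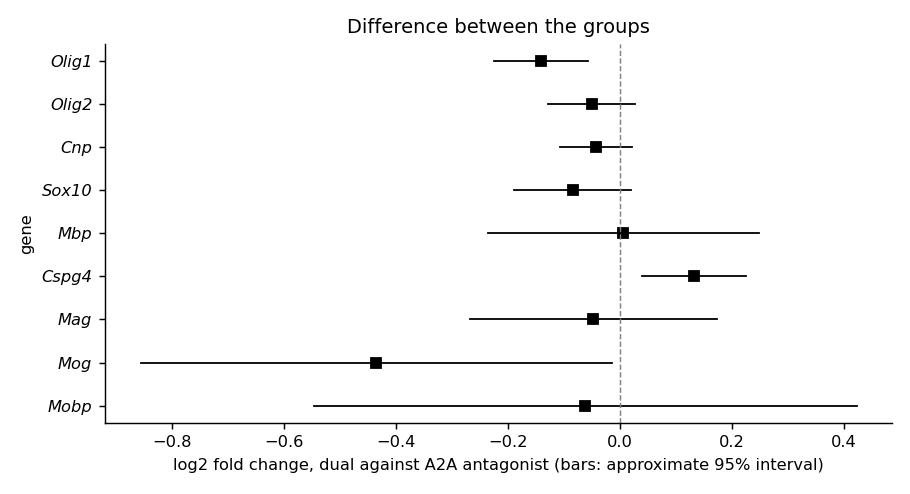
Log2 fold change of each gene, dual against A2A antagonist, from edgeR (squares), with approximate 95% intervals from the standard error (bars) and 4 libraries per group. The interval of Olig1 lies below 0, that of Cspg4 above 0 and that of Mog ends at -0.01, and no gene had an adjusted p-value under 0.05.

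By the ratio of the highest to the lowest library, the late myelin genes differed more than the early genes of the lineage. Beside genes of like level this held for Mbp and Mobp and not for Mog and Mag. The highest library was 2.96 times the lowest for Mobp, 2.00 times for Mog, 1.88 times for Mbp and 1.42 times for Mag, and between 1.07 and 1.25 times for Olig1, Olig2, Cnp, Sox10 and Cspg4. Counting error alone gives a coefficient of variation of 13.5% for Mog and 10.6% for Mobp, but of 2.48% for Mbp. Within the groups the coefficient of variation of Mbp was 12.8% and 25.1%. Of the 3264 genes tested with a mean CPM within 1.5-fold of that of Mbp, 99.9% had a smaller ratio of the highest to the lowest library, with a median of 1.15 times. For Mobp 98.6% of 1475 genes of like level had a smaller ratio, and for Cnp 10.6% of 2012. The others were less apart from genes of their level, with 72.1% below Mog and 75.3% below Mag, 90.8% below Olig1, 88.8% below Sox10, 83.7% below Cspg4 and 64.6% below Olig2.

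Mbp and Mobp went up and down together. Over the 8 libraries the log2 CPM of the pair had a Pearson r of 0.94 (exact permutation p = 5.46e-04, adjusted over all 36 pairs of the 9 genes 0.0196) and a Spearman rho of 0.86 (exact permutation p = 0.0107, adjusted 0.185). Without the libraries farthest from the median, dual replicates 1 and 3, r was 0.87. With the group means taken out r was likewise 0.94, so the pattern ran within the groups. This was the pair with an adjusted p-value under 0.05 for r, out of 4 pairs with an unadjusted one. Cnp with Sox10 came next at r = 0.92 (exact permutation p = 0.00283, adjusted 0.0509), and at 0.70 without dual replicates 4 and 1. Olig1 with Olig2 had r = 0.83 (exact permutation p = 0.00590, adjusted 0.0708), which was 0.43 without dual replicates 4 and 3 and so rested on those libraries. The median r over the 36 pairs was 0.14. All values of a library share its depth and scaling.

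**Figure D3:**
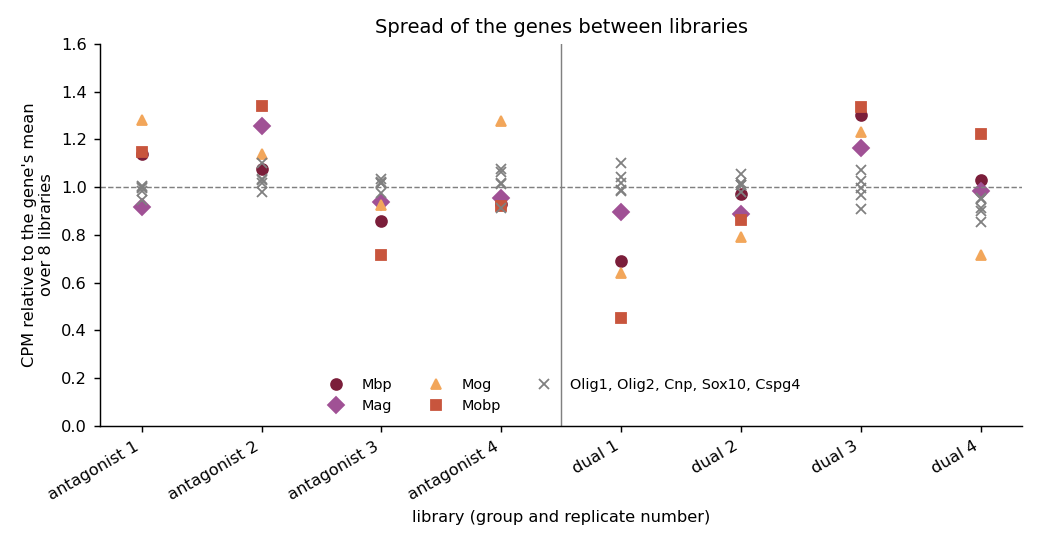
CPM of each gene in every library relative to its own mean over the 8 libraries, with the A2A antagonist group on the left and the dual group on the right. The late myelin genes (coloured) had the larger ratios, Mobp with 2.96 times between its lowest and highest library, and the other 5 genes (grey crosses) had at most 1.25 times. Beside genes of like level, Mbp and Mobp stood out and Mog and Mag did not.

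Other genes of the lineage were taken from 4 lists, and the list medians fell from precursor genes to myelin proteins. Single genes did not keep this order. Precursor genes ranged from 0.320 to 27.3 CPM per kilobase, and Cldn11 and Cers2 of the later lists stood above all of them. On the scale of CPM per kilobase, the median was 6.57 over 16 precursor genes, 1.53 over 18 genes of maturation and its enzymes and 0.904 over the 12 of 15 myelin proteins that passed the filter, beside 3.88 over all genes tested. The highest precursor genes were Ptprz1 at 27.3, Pdgfra at 19.2 and C1ql1 at 17.9 CPM per kilobase. Pdgfra encodes the growth factor receptor of precursors and is also made by fibroblasts, and Ptprz1 is shared with astrocytes. The highest of the maturation genes were Cers2 at 41.3, Car2 at 15.2 and Bcas1 at 12.5 CPM per kilobase, of which Bcas1 marks newly formed oligodendrocytes. The highest myelin proteins were Cldn11 at 55.2 and Pmp22 at 23.1 CPM per kilobase. Opalin, a protein of mature oligodendrocytes, stood at 0.319 CPM per kilobase.

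**Figure D4:**
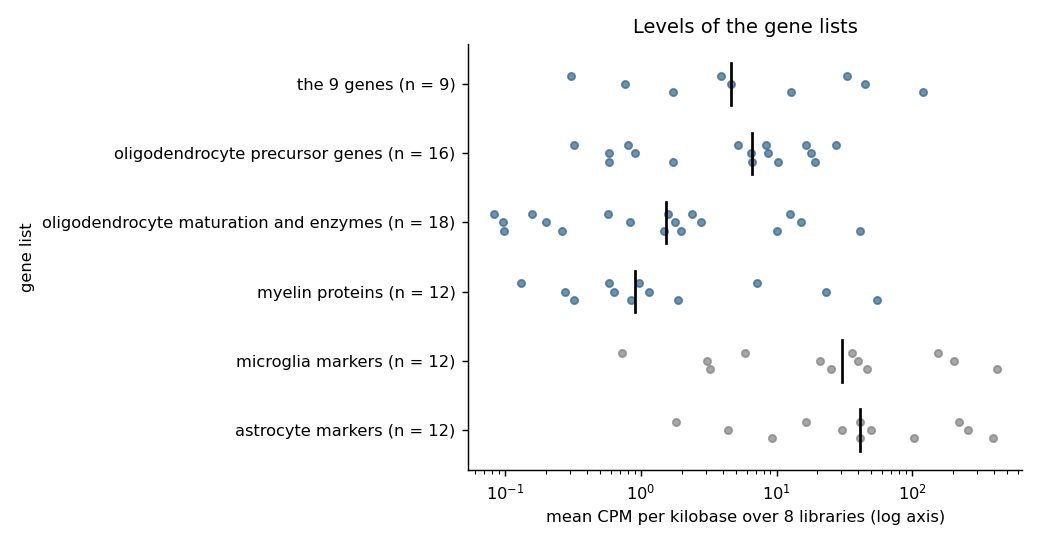
Mean CPM per kilobase over 8 libraries (log axis) of the genes that passed the filter on low counts, for the 9 genes, 3 lists of oligodendrocyte genes and 2 lists of other glia. Points are genes and black bars are medians, which fall from 6.57 for precursor genes to 1.53 for maturation genes and 0.904 for myelin proteins.

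Of these 64 listed genes, receptors and ligands of the lineage included, 60 were tested between the groups. In edgeR 0 had an adjusted p-value under 0.05 (0 in DESeq2), and 6 had an unadjusted one under 0.05, which is 10% beside 12.8% of all genes. The median log2 fold change of the 60 was 0.0078. Among the 6, named after their values were seen, Enpp6, Tspan2, Gpr17 and Jag1 had log2 fold changes of 0.79, 0.30, 0.12 and 0.10, and Hes5 had -0.96. Gpr17 encodes a receptor of precursors about to mature, Enpp6 an enzyme of newly formed oligodendrocytes, and Hes5 a target of Notch that holds precursors back. The highest genes of the receptor and ligand list were Id2, Fgf2 and Id4, at 41.6, 32.1 and 18.8 CPM per kilobase, and their adjusted p-values in edgeR were 0.646, 0.432 and 0.954.

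The study also compared the A2A antagonist with vehicle in activated cells. No library of this series is a vehicle culture, so only the authors' group means of normalised counts, scaled within 1 table, can be set side by side, without error or test. The authors' mean was higher with the antagonist than with vehicle for 8 of the 9 genes, as it was for 52.0% of the 18861 genes with a mean of at least 10, and the median ratio was 1.30 for the 9 genes and 1.01 for all. Among the transcription factors the ratio was 1.37 for Olig1 (authors' means 11746 and 8573), 1.36 for Olig2 (4966 and 3656) and 1.21 for Sox10 (1723 and 1429). Among the myelin genes it was 1.89 for Mobp (93.4 and 49.5), 1.39 for Mog (64.4 and 46.4), 1.30 for Mbp (1666 and 1286), 1.17 for Cnp (5279 and 4517) and 1.11 for Mag (308 and 277). Cspg4 had 1900 with the antagonist and 1941 with vehicle, a ratio of 0.98. The ratios of the late myelin genes stand beside a spread within the antagonist group of 26.2% for Mobp and 14.5% for Mog (coefficient of variation, n = 4).

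**Figure D5:**
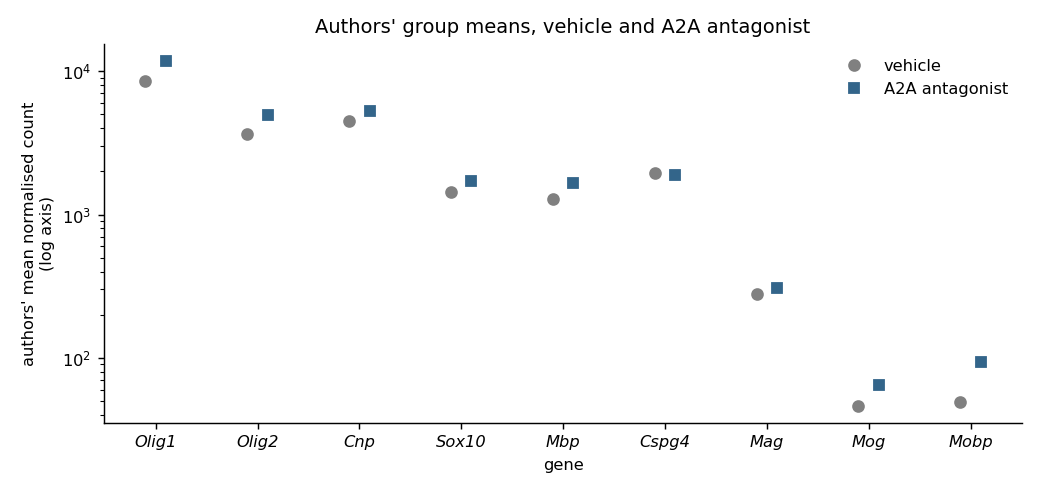
Authors' mean normalised count (log axis) of each gene with vehicle (circles) and with the A2A antagonist (squares), from 1 table and without error. The antagonist value is above that of vehicle for 8 of the 9 genes, and Cspg4 has 1900 against 1941.

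The related lists did not move as 1 block in those means. Myelin proteins were higher with the antagonist for 3 of 12 genes, with a median ratio of 0.94, precursor genes for 10 of 16 with 1.09 and maturation genes for 11 of 16 with 1.07. Pdgfra had a ratio of 0.98, Nkx2-2 1.74 and C1ql1 1.90. Cldn11, a claudin of myelin that cells of the meninges also make, had a ratio of 0.37. Other cell types differed in the same means: 0 of 9 fibroblast markers were higher with the antagonist (median ratio 0.29) and 0 of 7 mural cell markers (0.59), against 9 of 12 astrocyte markers (1.09) and 8 of 12 microglia markers (1.14). As normalised counts are relative to the other RNA of a library, the part of these cell types in the ratios of the 9 genes was not tested.

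By the profile of the 9 genes over the 8 libraries, each gene standardised and averaged, the most alike of 18747 other genes were Sdsl (Pearson r 0.97), Gm45148 (0.95) and Ntmt1 (0.95), and 31 genes had an r of 0.9 or more. These values describe 8 libraries that share their processing. Of the listed lineage genes, Mal, a lipid-raft protein of myelin, ranked highest at place 216 with r = 0.81.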

How the data were processed

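RNA from 8 cultures was sequenced in pairs. The authors used HISAT2, by their methods, to align reads to an Ensembl mouse genome (mm10 per the processing notes of the submitters) and counted them per gene with featureCounts 1.5.0-p3. The strand setting is not given in the sources used here. The deposited counts are raw, without normalization or pooling. In the second deposited table the authors' group means are size-factor normalised counts, a signal without error. The 9 columns of 3 vehicle libraries carry no sample of the series and were not used, nor were the fold changes and p-values of the authors. Both tables share 30302 genes, with 0 differing counts for the A2A antagonist group.

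Counts were tested in R 4.3.3 with edgeR 4.0.16 (filterByExpr, minimum count 10, TMM factors, quasi-likelihood F test, no covariates), checked on simulated data. P-values are two-sided and adjusted by the Benjamini-Hochberg procedure over all genes tested, and standard errors come from the F statistics. CPM is counts per 1e6 counts of the TMM-scaled library, and log2 CPM uses a prior count of 2. Single genes were also compared by exact permutation over 70 arrangements with SciPy 1.17.1. Alternatives were DESeq2 1.42.0, other scalings, no filter, a replicate block and leaving out each library.

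Members and lists were chosen with earlier results of these data known. The comparison of spread with genes of like level, the correlations between the genes and the motif letters were chosen after values were seen. The text names all 9 genes, the 3 highest per kilobase of each lineage list, called genes and the 3 most alike profiles, and other names were chosen after their values were seen. A few genes of the lists are not reported here by name. Total counts of 32630602 to 45878639 per library set the precision, and no batch was given.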

Additional observations from a re-analysis of the deposited data

Results flagged for a closer look

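Of 18 sets of 4 libraries checked (9 genes in 2 groups), 1 held a library far from the others, and chance gives about 1 in 20. Mag had 8.82 CPM in A2A antagonist replicate 2, where the other 3 libraries of the group had between 6.45 and 6.71 CPM. Its gap to the next library was 0.891 of the range of the group, above Dixon's critical value for 4 samples.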

How the results depend on the processing

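The number of genes called over all genes, 39 in edgeR, was 366 without the filter on low counts, 374 with DESeq2, 17 with the replicate block and between 0 and 172 when 1 library was left out. It was 0 without A2A antagonist replicate 4 (1802 genes at an unadjusted p-value under 0.05) or dual replicate 3 (2092), 5 and 6 without A2A antagonist replicates 2 and 3, and 172 without A2A antagonist replicate 1. The number of the 9 genes called was 1 without the filter, namely Olig1 (adjusted p-value 0.0293), and 0 in the other 12 settings, with 2 or 3 at an unadjusted p-value under 0.05. Of 117 log2 fold changes of the 9 genes under other settings, 107 kept their direction and their side of the threshold and 9 changed sign, all of Mbp, Mag and Mobp. DESeq2 gave no adjusted p-value for Mog, Mag and Mobp, so only their direction was compared there. Mbp was -0.0029 with DESeq2 and -0.016 with the replicate block, and between -0.15 and 0.14 when 1 library was left out. With 1 library left out, Mag ranged from -0.15 to 0.0717 and Mobp from -0.26 to 0.15. The cause was not tested. The summed CPM of the 9 genes moved by less than its spread under every scaling and left-out library tried. Libraries with the same replicate number did not deviate together (r from -0.10 to -0.04 over genes, against -0.04 to 0.13 for other pairs). A lack of shared deviation cannot show whether the numbers pair the samples, which the labels do not say. Mog and Mobp had 27 to 129 counts per library. Their coefficients of variation were 14.5% and 26.2% in the A2A antagonist group and 31.3% and 41.2% in the dual group. Counting error at the mean count of all 8 libraries gives 13.5% and 10.6%, so Mog in the A2A antagonist group lay near it.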
